A study of Mus musculus with 9 samples.

Results

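The respiratory chain genes of this mouse tumour data set were analysed as 2 classes. Nuclear members were the protein-coding genes whose symbols begin with Nduf, Uqcr, Cox4 to Cox8 or Atp5, together with Sdha to Sdhd and Cyc1, and mitochondrially encoded members were the protein-coding genes with the prefix mt-, all without pseudogenes. The rule used names and not measured values. It found 107 genes of the 47643 in the files, 94 nuclear and 13 mitochondrially encoded, and 97 of them (89 nuclear and 8 mitochondrially encoded) reached 100 counts in total and were tested.

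The respiratory chain passes electrons from NADH and succinate to oxygen and pumps protons across the inner mitochondrial membrane. Complex I (NADH dehydrogenase) and complex II (succinate dehydrogenase) feed electrons into ubiquinone, complex III (the cytochrome bc1 complex) hands them to cytochrome c, complex IV (cytochrome c oxidase) reduces oxygen, and complex V (the ATP synthase) uses the proton gradient to make ATP. All but complex II are built from subunits of both genomes: the mitochondrial genome is transcribed within the organelle as long polycistronic RNAs, most protein genes lying on 1 strand and mt-Nd6 alone on the other, whereas the nuclear subunits are transcribed singly from many chromosomes and imported.

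RNA was sequenced from pancreatic ductal adenocarcinoma (PDAC) cells of 2 mouse genotypes. The alleles of KPF mice named here were Trp53 frt/+, Pdx-Flp and R26 FSF-CreER/Dual, so that Flp recombinase driven by the pancreatic Pdx promoter removes 1 copy of Trp53, and KPYYF mice carried the alleles of KPF mice and Yap flox/flox. The dual reporter turns from EGFP to tdTomato (Tm) when tamoxifen, given in the diet once tumours could be felt, activates CreER. The 6 KPF libraries came from sorted GFP+ cells (mice 4269, 4435, 4504, 4515 and 4601, the libraries 4504h and 4504s sharing a mouse number) and the 3 KPYYF libraries from sorted Tm+ cells (mice 4449, 4891 and 4938), which are meant to have lost Yap. Both sexes were used in the study, and the age of each mouse was not given in the labels. The mix of sexes may differ between the groups, as described below for Xist. According to the paper, both genotypes received tamoxifen, and the sequenced cells came from relapsed nodules. Genotype, Yap deletion, recombination, reporter colour and any selection during relapse changed together between the groups and cannot be told apart. The p-values measure the spread between these libraries. As 4504h and 4504s share a mouse number, the 6 KPF libraries are not 6 independent mice, and an n of 6 counts libraries.

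The libraries held between 8116539 and 9635514 reads assigned to genes, and 3 reads, taken here as the floor, corresponded to between 0.311 and 0.370 CPM (read counts scaled to an equal library size). Yap1, the gene deleted in KPYYF, was measured at 99.0 ± 41.7 CPM in the KPF libraries (SD, n = 6), and it fell in KPYYF to 3.55 ± 3.26 CPM (n = 3), with a log2 fold change of -4.79 ± 0.72 (SE, edgeR adjusted p = 0.0159), with every KPYYF library under every KPF library. Xist, an X-linked RNA of female cells, was at 7.66, 7.84 and 23.1 CPM in KPF 4269, 4515 and 4601. It was at 1117, 758 and 668 CPM in KPF 4435, 4504h and 4504s. In KPYYF 4449, 4891 and 4938 it was at 1641, 376 and 1761 CPM. Libraries with at least 1000 Xist reads (3 KPF and 3 KPYYF), called high-Xist below, were also fitted alone. Reads without a unique alignment made up 43.8 to 48.5% of KPF libraries and 49.2 to 53.4% of KPYYF libraries. Summed ductal epithelial markers (9 genes, all of them lower and 3 past the adjusted threshold) lay between 3569 and 11923 CPM in KPF and between 646 and 2141 CPM in KPYYF, so the label of ductal tumour cells had less marker RNA behind it in KPYYF. Of 10 immune markers 8 were tested, all 8 lower in KPYYF and none past the adjusted threshold. Summed immune markers lay between 413 and 7869 CPM in KPF (median 603) and between 354 and 699 CPM in KPYYF (median 503). In such bulk libraries fewer cells of a type and less RNA per cell cannot be told apart. The part of these differences in the values below was not tested.

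The first question was whether the respiratory chain genes as classes differed between KPYYF and KPF cells. No nuclear and no mitochondrially encoded member passed the adjusted threshold of 0.05 in edgeR's quasi-likelihood test, where 0.305% of the 14105 genes tested were called higher and 0.794% lower in KPYYF. At an unadjusted p under 0.05, 4 nuclear members were higher (Ndufv2, Ndufab1, Ndufa8 and Ndufb9) and 1 was lower (Atp5g2), beside a background of 6.1% higher and 10% lower, and no mitochondrially encoded member reached it. With the study's own rule, which asks for more than a 2-fold change beside an unadjusted p below 0.05, the counts were 0 higher and 1 lower, Atp5g2, where 4.2% of all genes were higher and 9.2% lower. DESeq2 called Ndufv2 higher (adjusted p = 0.0148) and Atp5g2 lower (adjusted p = 0.000295), against 1.91% and 6.58% of all genes, and limma-voom called no member, against 0.312% and 0.276%. The nuclear members were therefore called no more often than other genes by any of these rules.

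The median log2 fold change was 0.08 over the 89 nuclear members (52 higher and 37 lower), -0.27 over the 8 mitochondrially encoded members (2 higher and 6 lower) and -0.07 over all genes tested. The 8 include mt-Nd3, whose reads were split with a nuclear copy, as described below. Without mt-Nd3 the median was -0.34 over 7 genes (1 higher and 6 lower). By complex, the nuclear medians were 0.05 for the 38 genes with complex I symbols, -0.00 for the 8 complex I assembly factors, 0.14 for the 4 genes of complex II, 0.04 for the 9 of complex III, -0.06 for the 13 tested of complex IV and 0.19 for the 17 of complex V. Complexes were assigned by symbol, so Ndufa4 and Ndufa4l2 were counted with complex I. For 50 of the 89 nuclear members the 95% interval of the fold change lay wholly between a halving and a doubling, compared with 2 of the 8 mitochondrially encoded members and with 12.1% of all genes tested. Intervals this narrow were also found for 53 of 79 cytosolic ribosomal protein and 7 of 14 tricarboxylic acid cycle genes. They were found for 10 of 74 mitochondrial ribosomal protein genes and 0 of the 8 complex I assembly factors. The nuclear members also varied less among KPF libraries, with a median SD of 0.40 in log2 CPM over the 89 genes, than did the 8 mitochondrially encoded members at 0.49 and all genes tested at 0.78. All genes tested were not matched to the members in counts, and the part of abundance in these differences was not tested. The plot of fold changes with their intervals shows most nuclear members close to 0 and a few low-count genes with wide intervals.

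**Figure D1:**
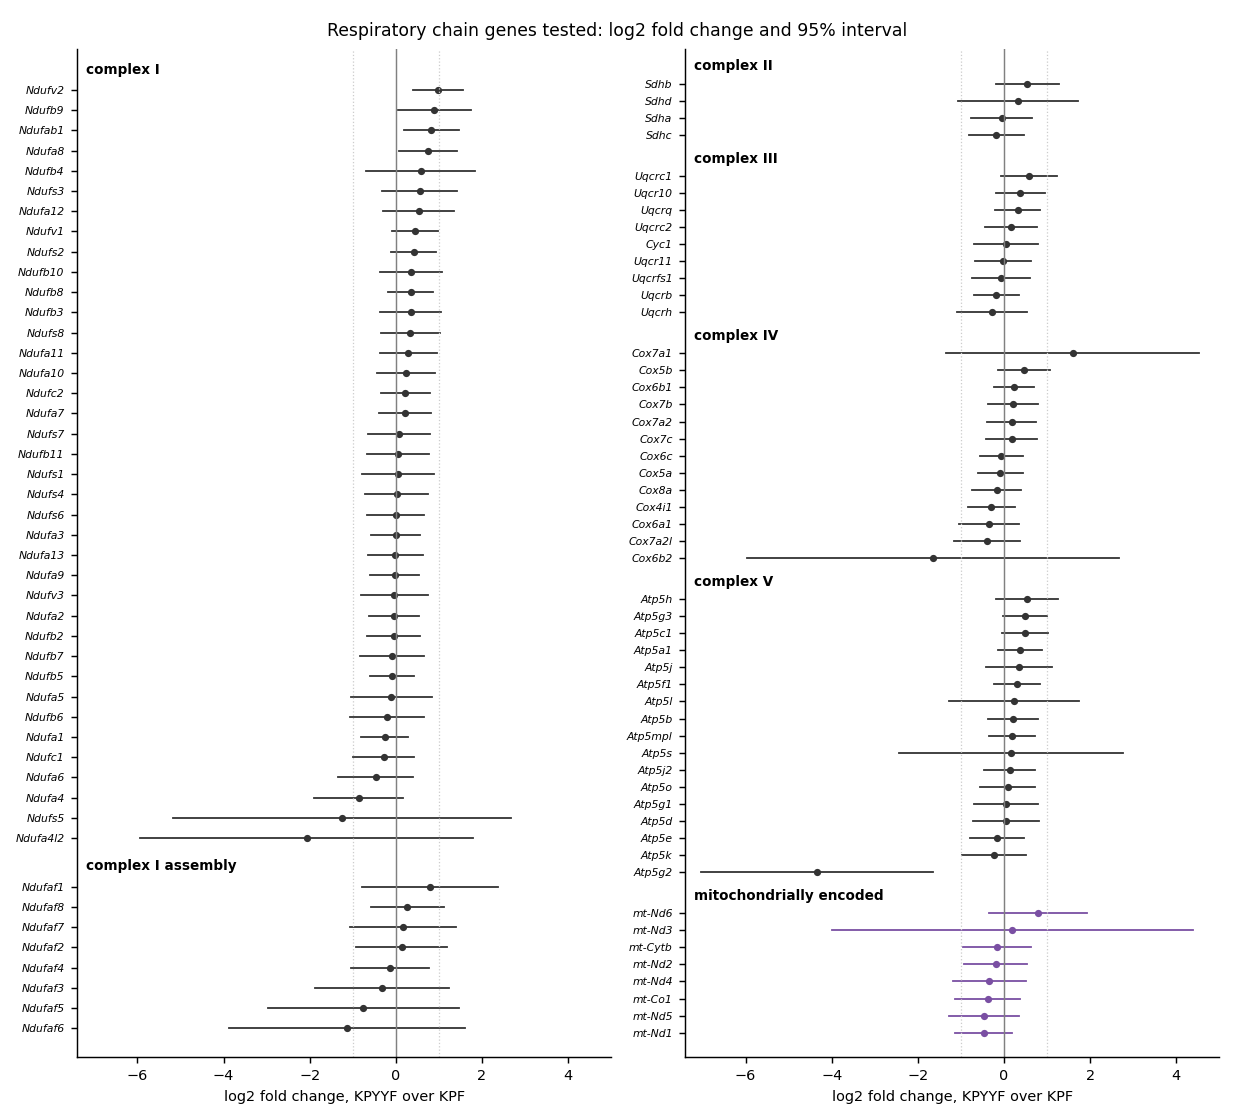
Log2 fold change (point) and 95% interval (line) of KPYYF over KPF for the 97 tested respiratory chain genes, nuclear genes in black by complex and mitochondrially encoded genes in purple, with dotted lines at a 2-fold change. The intervals of 50 nuclear genes lie between the dotted lines, and Atp5g2, at -4.35, lies apart from the other members of complex V.

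The summed levels of the 2 classes behaved differently among the libraries. The nuclear members summed to 13566 CPM in KPF 4269, 13268 in 4435, 14216 in 4504h, 13492 in 4504s, 13915 in 4515 and 14063 in 4601, and to 14180, 16416 and 14957 CPM in KPYYF 4449, 4891 and 4938. The KPF mean was 13753 ± 367 CPM (SD, n = 6) and the KPYYF mean 15184 ± 1135 CPM (n = 3), and the groups overlapped by 1 library, KPYYF 4449 lying just under KPF 4504h. The mitochondrially encoded members summed to 13543, 8448, 15570, 13025, 14865 and 12281 CPM in the KPF libraries, in the same order, and to 15894, 5293 and 10077 CPM in the KPYYF libraries. The KPYYF libraries thus held both the highest sum, in 4449, and the lowest, in 4891. The largest parts of this sum were mt-Cytb (303992 reads over all libraries), mt-Nd1 (285639) and mt-Nd4 (194434). mt-Co2, mt-Co3, mt-Atp6, mt-Atp8 and mt-Nd4l, described below, added next to nothing, so neither the sum nor the ratio covers the whole class. The ratio of mitochondrially encoded to nuclear sums was 0.637 to 1.10 in KPF, and 1.12, 0.322 and 0.674 in KPYYF 4449, 4891 and 4938. Without KPYYF 4891 the median log2 fold change of the mitochondrially encoded members, mt-Nd3 included, was 0.06. Without KPYYF 4449 it was -0.52, so that its sign rested on 4891.

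**Figure D2:**
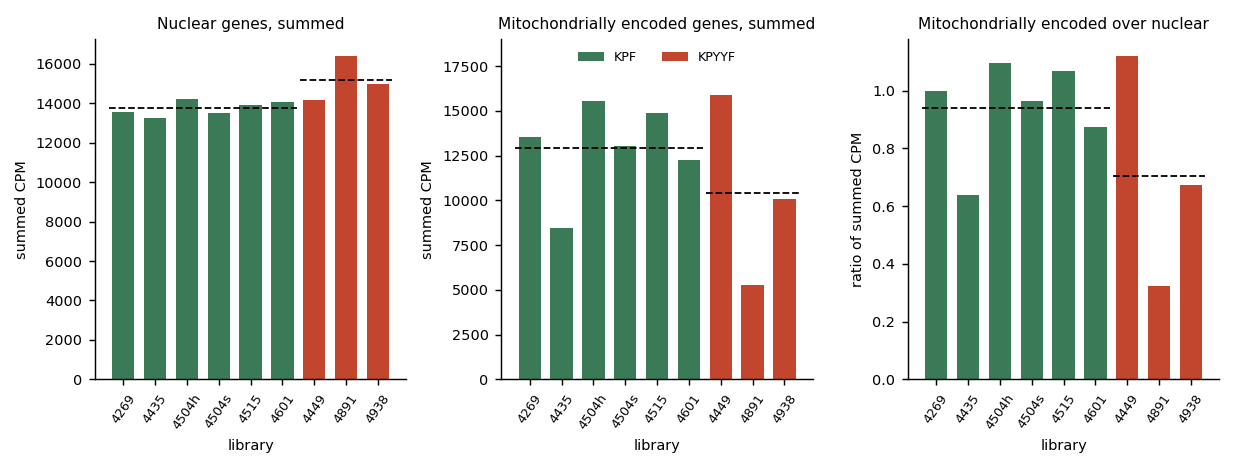
Summed CPM of the nuclear members (left) and of the mitochondrially encoded members (middle), and the ratio of the second to the first (right), in each library, with dashed lines at the group means. Nuclear sums range from 13268 to 16416 CPM, and the 3 KPYYF libraries span 5293 to 15894 CPM for the mitochondrially encoded sum. Several mitochondrially encoded genes with next to no reads add almost nothing to that sum.

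Complex I oxidises NADH on a peripheral arm, to which the first subunits described here belong. Ndufv2 (chromosome 17), a core subunit that carries an iron-sulphur cluster beside the flavin site, was measured at 57.8, 62.7, 57.7, 56.6, 50.8 and 57.9 CPM in KPF 4269, 4435, 4504h, 4504s, 4515 and 4601 and at 142, 117 and 78.5 CPM in KPYYF 4449, 4891 and 4938. The KPF libraries were tightly grouped and each KPYYF library lay above them. The log2 fold change of Ndufv2 was 0.97 ± 0.27 (SE, 95% interval 0.40 to 1.55, edgeR adjusted p = 0.100). Ndufv1 (chromosome 19), the flavoprotein that accepts electrons from NADH, was measured at 95.6, 83.4, 90.4, 64.7, 82.2 and 74.3 CPM in KPF and at 113, 116 and 105 CPM in KPYYF. These groups did not overlap either, with a log2 fold change of 0.45 ± 0.25 (adjusted p = 0.408).

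Ndufab1 (chromosome 7), the mitochondrial acyl carrier protein, which is also a subunit of complex I, was measured at 37.5, 33.9, 40.9, 55.7, 53.1 and 40.4 CPM in KPF and at 60.0, 91.8 and 79.7 CPM in KPYYF. Its log2 fold change was 0.82 ± 0.30 (edgeR adjusted p = 0.184), and the groups did not overlap. Of the sequence near its 3′ end, 20.1% of the 50-base words occurred also in another annotated gene, so a share of its reads could have been left out as not unique. Of the 89 nuclear members tested, groups did not overlap for 4 higher in KPYYF (Ndufv1, Ndufv2, Ndufab1 and Atp5c1) and for 1 lower (Atp5g2). Over all genes tested the shares were 3.92% and 5.18%, so the higher share was near the background and the lower share below it.

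Ndufb9 (chromosome 15), an accessory subunit of the membrane arm, had uneven values in KPYYF. It was measured at 296, 240, 258, 283, 305 and 232 CPM in KPF and at 164, 936 and 400 CPM in KPYYF 4449, 4891 and 4938, so that KPYYF 4449 was under and KPYYF 4891 far above the whole KPF range. The log2 fold change was 0.89 ± 0.39 (edgeR adjusted p = 0.275), 0.07 without KPYYF 4891, 1.31 without KPYYF 4449 and 1.03 without KPYYF 4938. Ndufa8 (chromosome 2), a further accessory subunit, had 34.8 to 66.9 CPM in KPF and 104, 64.4 and 83.3 CPM in KPYYF, with a log2 fold change of 0.76 ± 0.31 (adjusted p = 0.248). Ndufb4 (chromosome 16) was scarce, at 6.23 to 13.5 CPM in KPF and 5.09 to 20.2 CPM in KPYYF, with a log2 fold change of 0.58 ± 0.59 (adjusted p = 0.699).

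Among complex I symbols at the lower end, Ndufa4 (chromosome 6), whose product is now assigned to complex IV, was measured at 174, 73.1, 90.9, 64.9, 92.6 and 41.9 CPM in KPF and at 84.8, 38.1 and 24.8 CPM in KPYYF. Only KPYYF 4891 and 4938 lay under the KPF range, and the log2 fold change was -0.86 ± 0.48 (edgeR adjusted p = 0.407). Its paralog Ndufa4l2 (chromosome 10), a gene known to be induced by hypoxia, had 37.4 and 17.2 CPM in KPF 4504h and 4504s and at most 5.13 CPM in the other libraries. The log2 fold change of Ndufa4l2 was -2.07 ± 1.77 (adjusted p = 0.626), and -0.96 without KPF 4504h. Ndufa6 (chromosome 15) had 244 to 466 CPM in KPF and 95.3, 400 and 155 CPM in KPYYF, with a log2 fold change of -0.47 ± 0.40 (adjusted p = 0.629). The 2 X-linked complex I genes gave log2 fold changes of -0.26 ± 0.25 for Ndufa1 and 0.05 ± 0.33 for Ndufb11. Ndufa2, with the highest mean CPM in complex I, gave -0.04 ± 0.27. Of the 8 assembly factors 4 were higher and 4 lower, from -1.13 for Ndufaf6 to 0.79 for Ndufaf1. Ndufaf8, the most abundant of them by CPM, gave 0.27 ± 0.39.

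In complex II, none of the 4 subunits passed the test. The flavoprotein Sdha gave a log2 fold change of -0.05 ± 0.33 (59.5 to 186 CPM in KPF, 128 to 153 in KPYYF) and the iron-sulphur subunit Sdhb 0.54 ± 0.34 (51.0 to 152 CPM in KPF, 95.4 to 175 in KPYYF). Of the membrane anchors, Sdhc gave -0.18 ± 0.30 and the scarce Sdhd 0.33 ± 0.65. In complex III the highest fold change was that of the core subunit Uqcrc1, which was measured at 50.3, 129, 115, 99.6, 124 and 103 CPM in KPF and at 168, 127 and 167 CPM in KPYYF. The KPF range of Uqcrc1 reached 129 CPM, above KPYYF 4891, and its log2 fold change was 0.57 ± 0.30 (edgeR adjusted p = 0.380). Uqcrh, the hinge protein, had 254 to 479 CPM in KPF and 118, 460 and 304 CPM in KPYYF, with a log2 fold change of -0.28 ± 0.37 (adjusted p = 0.780).

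Complex IV offered tissue-specific pairs of subunits. The widely expressed forms carried nearly all reads: Cox4i1, Cox6a1, Cox6b1, Cox7a2, Cox7b and Cox8a each had at least 139 CPM in every library. The log2 fold changes were -0.30 ± 0.26 for Cox4i1, -0.35 ± 0.32 for Cox6a1, 0.23 ± 0.22 for Cox6b1, 0.18 ± 0.26 for Cox7a2, 0.21 ± 0.27 for the X-linked Cox7b and -0.17 ± 0.27 for Cox8a, none past the test. Cox7a2l, which joins complexes III and IV in supercomplexes, gave -0.40 ± 0.35 (46.1 to 131 CPM in KPF, 48.3 to 82.2 in KPYYF). The restricted forms had at most 10.9 CPM in any library. Cox4i2, the isoform known from lung and hypoxia, had 19 reads over all libraries, 15 of them in KPF 4504s. Cox6a2, a muscle isoform, and Cox7b2 and Cox8c, known from testis, had no read in any of the 9 libraries, which allows up to 3 reads a library. The muscle isoform Cox8b had 17 reads, all in KPYYF 4938. The muscle isoform Cox7a1 had 0 to 6.42 CPM in KPF and 10.9, 2.40 and 8.96 CPM in KPYYF, with a log2 fold change of 1.59 ± 1.36 (adjusted p = 0.623). Cox6b2, a testis isoform, had 0 to 8.56 CPM in KPF and 0 to 2.51 CPM in KPYYF, with a log2 fold change of -1.65 ± 2.00 (adjusted p = 0.752).

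In complex V, 14 of 17 genes were higher and 3 lower in KPYYF, but only Atp5g2 reached an unadjusted p under 0.05. Atp5g1, Atp5g2 and Atp5g3 encode precursors that differ in their targeting peptides and yield the same mature c subunit, the protein of the rotating membrane ring. Their promoters are shown because the 3 genes for 1 protein had different values. RefSeq promoters of 300 bases (GRCm38.p6, 250 before and 50 after the start) were found for 74 of the 94 nuclear members and were searched on both strands for the core letters known from sites of NRF1 (CATGCGC), ETS factors (CCGGAAG) and YY1 (AAGATGG). Capitals mark a match to 1 of these motifs.
Atp5g1, chr11:96075582-96075881, minus strand: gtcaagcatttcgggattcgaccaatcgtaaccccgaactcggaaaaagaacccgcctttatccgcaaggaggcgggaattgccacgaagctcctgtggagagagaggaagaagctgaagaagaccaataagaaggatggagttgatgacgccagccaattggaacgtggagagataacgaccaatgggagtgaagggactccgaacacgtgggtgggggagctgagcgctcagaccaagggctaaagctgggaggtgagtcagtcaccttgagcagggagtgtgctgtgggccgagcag
Atp5g2, chr15:102670998-102671297, minus strand: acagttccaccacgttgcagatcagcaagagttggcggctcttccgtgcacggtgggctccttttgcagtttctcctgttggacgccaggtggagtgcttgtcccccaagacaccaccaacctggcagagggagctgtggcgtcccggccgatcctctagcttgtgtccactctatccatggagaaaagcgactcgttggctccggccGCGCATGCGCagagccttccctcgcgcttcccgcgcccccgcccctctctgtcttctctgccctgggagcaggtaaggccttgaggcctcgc
Atp5g3, chr2:73911277-73911576, minus strand: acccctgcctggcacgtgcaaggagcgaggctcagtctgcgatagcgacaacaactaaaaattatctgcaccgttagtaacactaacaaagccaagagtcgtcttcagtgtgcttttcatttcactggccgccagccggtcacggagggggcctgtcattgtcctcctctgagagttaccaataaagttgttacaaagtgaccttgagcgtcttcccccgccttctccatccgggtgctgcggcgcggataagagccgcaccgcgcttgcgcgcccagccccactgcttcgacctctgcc

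Only Atp5g2 of these held a match, to the NRF1 letters on both strands, in overlapping positions. Over all members with a promoter, 15 of 74 (20.3%) held the NRF1 letters against 4.41% of 27025 genes, 18 of 74 (24.3%) the ETS letters against 9.93%, and 11 of 74 (14.9%) the YY1 letters against 7.28%. The members with NRF1 letters had a median log2 fold change of -0.02 and those without 0.13, and the medians were 0.23 and 0.07 for the ETS letters and 0.07 and 0.13 for the YY1 letters. The 27025 genes were all those with a promoter and were not matched to the members in biotype or abundance. A match is a run of letters and does not show binding.

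Atp5g2 (chromosome 15) was measured at 16.8, 7.56, 11.3, 5.68, 4.86 and 4.51 CPM in KPF 4269, 4435, 4504h, 4504s, 4515 and 4601, and at 0, 0.545 and 0.656 CPM in KPYYF 4449, 4891 and 4938. In reads these were 173, 74, 111, 50, 44 and 31 against 0, 5 and 6, so that the groups did not overlap. The log2 fold change was -4.35 ± 1.25 (95% interval -7.04 to -1.65, edgeR adjusted p = 0.115). Near the 3′ end of Atp5g2, 55.5% of 50-base words occurred in another annotated gene. The share was 36.0% for Atp5g1 and 0% for Atp5g3, and its part in the levels of the 3 genes was not tested. Atp5g1 was measured at 28.9 to 57.5 CPM in KPF and 30.8 to 48.6 CPM in KPYYF, with a log2 fold change of 0.04 ± 0.35 (adjusted p = 0.974). Atp5g3, which held most of the subunit c reads, was measured at 878, 1266, 963, 895, 921 and 747 CPM in KPF and at 1060.1, 1472 and 1439 CPM in KPYYF. The KPF library 4435 lay above KPYYF 4449, and the log2 fold change of Atp5g3 was 0.49 ± 0.24 (adjusted p = 0.337).

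Atp5c1 (chromosome 2), the central stalk subunit that turns within the catalytic head, was measured at 96.8, 75.0, 87.3, 77.1, 98.5 and 73.6 CPM in KPF and at 136, 105 and 114 CPM in KPYYF. The groups did not overlap, and its log2 fold change was 0.48 ± 0.25 (edgeR adjusted p = 0.367). Atp5a1 and Atp5b, whose products form the catalytic head, gave 0.37 ± 0.24 and 0.21 ± 0.27, with overlapping groups. The other members of the complex lay between -0.24 for Atp5k and 0.53 for Atp5h.

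**Figure D3:**
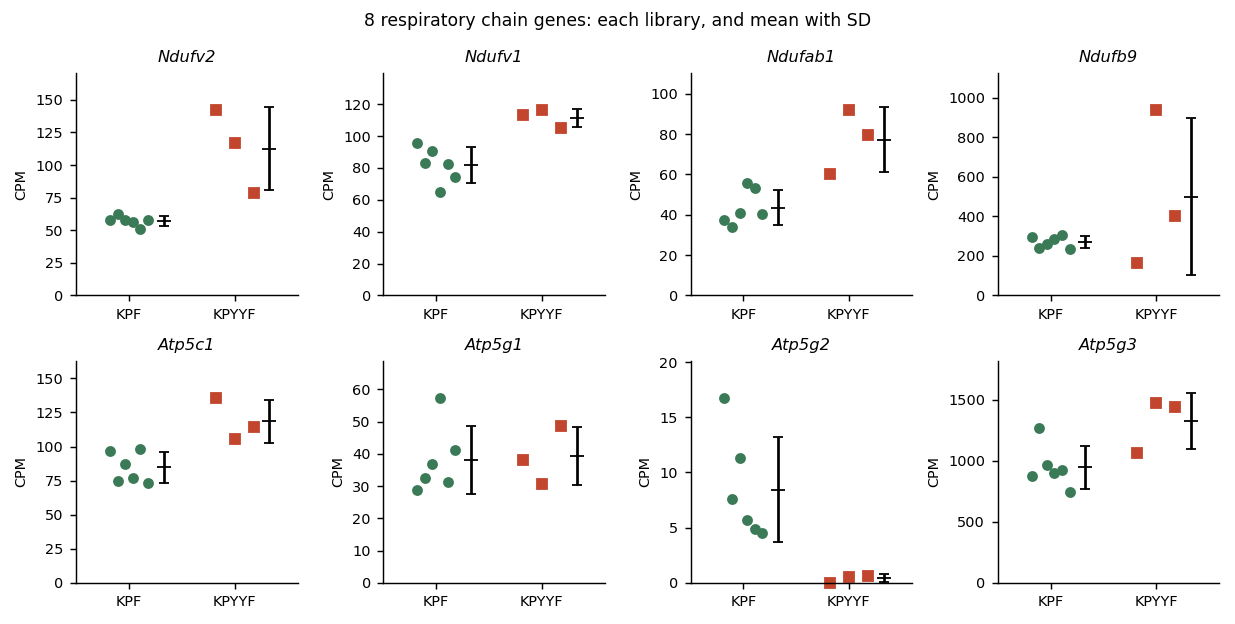
CPM of 8 respiratory chain genes in each library (circles KPF, squares KPYYF), with the mean and SD of each group beside them. For Ndufv2, Ndufv1, Ndufab1 and Atp5c1 each KPYYF library lies above each KPF library, for Atp5g2 each lies below, and Ndufb9 spreads from 164 to 936 CPM in KPYYF.

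Of the 13 mitochondrially encoded genes, 5 were close to or at 0. mt-Co2 had 14 reads, all in KPF 4515, mt-Atp6 had 10, all in KPF 4504h, and mt-Co3, mt-Atp8 and mt-Nd4l were listed at 0 in all 9 libraries. These genes are expressed in cells that respire, and 4 of the 5 have near-identical copies in a block of nuclear pseudogenes on chromosome 1 (chr1:24611535-24616197, mm10). Of their 50-base words, 100% for mt-Co2, 99.5% for mt-Atp6, 99.9% for mt-Co3 and 98.8% for mt-Nd4l occurred in another annotated gene, best matched by pseudogenes of that block, and none did for mt-Nd1, mt-Nd6, mt-Cytb or mt-Atp8. mt-Co1, with 51.1% of its words in other annotated genes and 100% over its last 300 bases, had 69926 reads. mt-Nd4, with 62.2% of its words shared but none over its last 300 bases, had 194434 reads, and mt-Atp8, without any shared word, had no read. Only annotated genes were searched, so a copy without annotation would have been missed. The part of the copies in the low counts was not tested. The pseudogenes Gm28661, Gm10925 and Gm10222, copies of mt-Co2, mt-Atp6 and mt-Nd4l, were also at 0 reads, and Gm28437, the copy of mt-Co3, had 5. The following stretches of 60 bases (GENCODE M21 transcripts, GRCm38, both written in the sense of the mitochondrial gene) show how close the copies are. Capitals mark bases that differ.
mt-Co2, chrM:7634-7693, plus strand: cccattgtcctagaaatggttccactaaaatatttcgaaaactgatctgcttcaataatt
Gm28661, chr1:24614885-24614944, minus strand: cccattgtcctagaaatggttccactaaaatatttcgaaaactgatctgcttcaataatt
mt-Nd3, chrM:9459-9518, plus strand: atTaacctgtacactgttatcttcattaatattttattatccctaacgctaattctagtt
Gm28438, chr1:24613060-24613119, minus strand: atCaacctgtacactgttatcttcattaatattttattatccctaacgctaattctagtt

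Over 681 aligned bases mt-Co2 and Gm28661 were identical. Over 345 aligned bases mt-Nd3 and its copy Gm28438 differed at 1, T3C, counted from the first base of mt-Nd3. Reads of mt-Nd3 numbered 222, 0, 0, 25, 3 and 3 in KPF 4269, 4435, 4504h, 4504s, 4515 and 4601 and 0, 30 and 102 in KPYYF 4449, 4891 and 4938. Reads of Gm28438 numbered 0, 80, 505, 165, 186 and 62 in KPF and 386, 1 and 2 in KPYYF. In KPF 4269 and KPYYF 4891 and 4938 nearly all reads of the pair were thus counted on mt-Nd3, and in the other 6 libraries 86.8 to 100% were counted on the nuclear copy. Summed over the pair, the reads ranged from 65 to 505 in KPF and from 31 to 386 in KPYYF. The log2 fold change of mt-Nd3 alone, 0.20 ± 1.93, is for this reason no measure of that transcript.

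The other 7 mitochondrially encoded genes had at least 3048 reads each. mt-Cytb, the only mitochondrially encoded subunit of complex III, was measured at 4436, 2876, 4876, 3577, 4549 and 2866 CPM in KPF and at 6017, 1547 and 2718 CPM in KPYYF 4449, 4891 and 4938. KPYYF 4449 was above and KPYYF 4891 and 4938 below the KPF range, with a log2 fold change of -0.17 ± 0.37 (edgeR adjusted p = 0.876). mt-Nd1 was measured at 3543, 2491, 5044, 3572, 5211 and 3308 CPM in KPF and at 3732, 1702 and 2920 CPM in KPYYF, a log2 fold change of -0.47 ± 0.31 (adjusted p = 0.497). mt-Co1, the catalytic subunit of complex IV, had 517 to 1437 CPM in KPF and 784, 394 and 930 CPM in KPYYF, a log2 fold change of -0.38 ± 0.35. The log2 fold changes of the remaining subunits of complex I encoded on the same strand were -0.19 ± 0.34 for mt-Nd2, -0.34 ± 0.39 for mt-Nd4 and -0.47 ± 0.37 for mt-Nd5. All 6 of these genes on the 1 strand had negative fold changes, and each had its lowest KPYYF value in 4891. They come from shared precursor RNAs, so they are not 6 independent observations.

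mt-Nd6, on the other strand, was measured at 10.2, 34.8, 45.0, 43.8, 22.5 and 23.3 CPM in KPF and at 14.9, 58.4 and 81.9 CPM in KPYYF. KPYYF 4891 and 4938 were above the whole KPF range and KPYYF 4449 was second lowest of the 9, with a log2 fold change of 0.79 ± 0.53 (edgeR adjusted p = 0.512). As a percentage of mt-Cytb reads in the same library, mt-Nd6 was at 0.230 to 1.23% in KPF and at 0.248, 3.78 and 3.01% in KPYYF 4449, 4891 and 4938. mt-Nd6 overlaps the end of mt-Nd5 on the opposite strand. The strand setting of the counting was not given in the sources used here, so reads of the 2 strands may not have been told apart. The libraries read polyadenylated RNA, and how much of the mt-Nd6 RNA they captured was not tested, so the percentage describes reads only. The mitochondrial rRNA genes took 1.18 to 2.56% of assigned reads in KPF and 1.92, 1.03 and 1.31% in KPYYF, the lowest share of the 9 again being that of 4891.

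**Figure D4:**
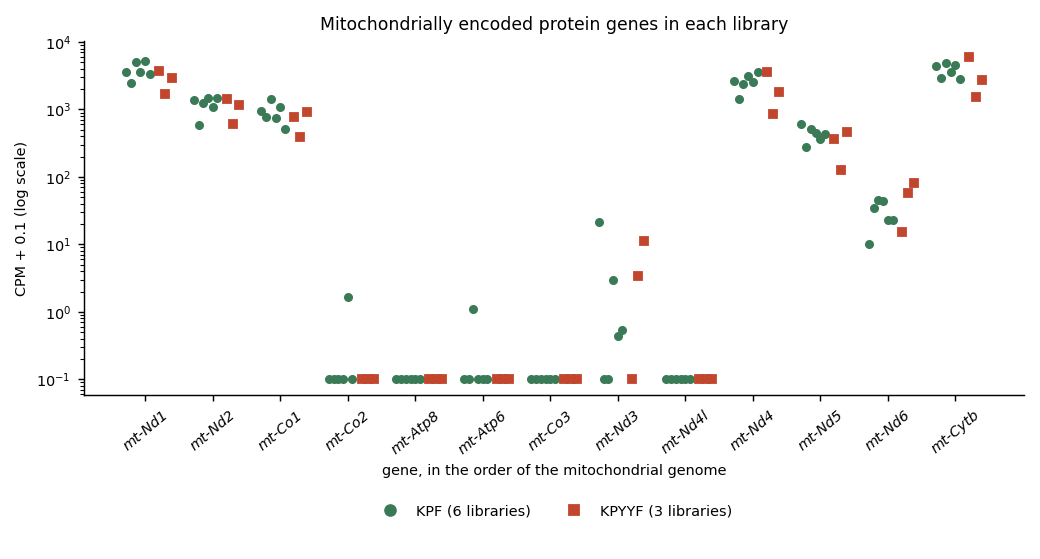
CPM of the 13 mitochondrially encoded protein genes in each library on a log axis, with 0.1 added so that zeros can be drawn, in genome order. mt-Co2, mt-Atp8, mt-Atp6, mt-Co3 and mt-Nd4l sit at or near 0, and mt-Cytb spans 1547 to 6017 CPM in KPYYF and 2866 to 4876 CPM in KPF.

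Other genes that serve the respiratory chain were compared from lists of related function. None of their members passed the adjusted threshold in edgeR's test. The 37 assembly factors tested had a median log2 fold change of 0.21 and numbered 24 higher and 13 lower, from -1.45 ± 1.27 for Sdhaf3 (a complex II assembly factor) to 1.23 ± 0.66 for Cox15 (haem A synthesis). The 20 genes of electron carriers and coenzyme Q synthesis had a median of 0.07, from -1.36 ± 0.58 for Etfdh (electron transfer from fatty acid oxidation) to 1.13 ± 0.57 for Coq3. The 14 genes of the tricarboxylic acid cycle had a median of 0.15, with 10 higher, and the highest was Fh1 (fumarate hydratase) at 1.04 ± 0.37 (adjusted p = 0.180), the lowest Suclg2 at -0.53 ± 0.56.

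Genes for expression and upkeep of the mitochondrial genome had a median of 0.31, with 21 of 27 tested higher. Of these, Pnpt1, a mitochondrial RNA-degrading enzyme, was measured at 11.4, 5.21, 11.2, 10.9, 5.63 and 5.09 CPM in KPF and at 29.8, 27.9 and 13.6 CPM in KPYYF, a log2 fold change of 1.52 ± 0.53 (edgeR adjusted p = 0.170). Elac2, which cuts tRNAs out of the mitochondrial precursor RNA, was measured at 15.3, 10.3, 13.8, 10.8, 13.4 and 20.4 CPM in KPF and at 36.5, 24.2 and 23.9 CPM in KPYYF, a log2 fold change of 1.01 ± 0.42 (adjusted p = 0.245). The groups did not overlap for either gene, and these were the 2 of 27 for which this was so, both higher, beside 3.92% of all genes tested. The lowest of the list was Mterf3 at -1.95 ± 1.84.

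Regulators of mitochondrial biogenesis had a median of -0.10 over 11 tested genes, from -1.42 ± 1.23 for the coactivator Ppargc1b to 0.45 ± 0.53 for its relative Pprc1, and Nrf1, the factor whose motif was searched above, gave -0.58 ± 0.47. The 19 genes of mitochondrial mass and import had a median of 0.37, with 15 higher, the highest being the chaperonin Hspd1 at 1.10 ± 0.31 (adjusted p = 0.111 in edgeR) and the lowest Immt at -0.47 ± 0.28. The 13 tested genes of the hypoxia response had a median of -0.22, from -1.60 ± 0.52 for Ndrg1 to 0.68 ± 0.31 for Lonp1. Mitochondrial ribosomal protein genes (56 of 74 higher, median 0.32) and cytosolic ribosomal protein genes (68 of 79 higher, median 0.29) lay higher than the nuclear respiratory chain genes at 0.08, a difference that was not tested. Groups did not overlap, with KPYYF higher, for 5 of 74 mitochondrial and 9 of 79 cytosolic ribosomal protein genes, 2 of 14 tricarboxylic acid cycle genes and 1 of 19 genes of mass and import. KPYYF was lower without overlap for 1 gene each among the 37 assembly factors, the 20 carrier genes and the 19 genes of mass and import. Over all genes tested these shares were 3.92% higher and 5.18% lower. The ribosomal protein genes ran from -1.11 for Mrpl48 to 1.43 for Mrps26 and from -0.67 for Rpl35a to 3.83 for the scarce Rpl24. Genes that respond to tissue dissociation had a median of -0.38 over 12, from -1.05 ± 0.68 for Atf3 to 1.87 ± 0.68 for Hspa1a.

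**Figure D5:**
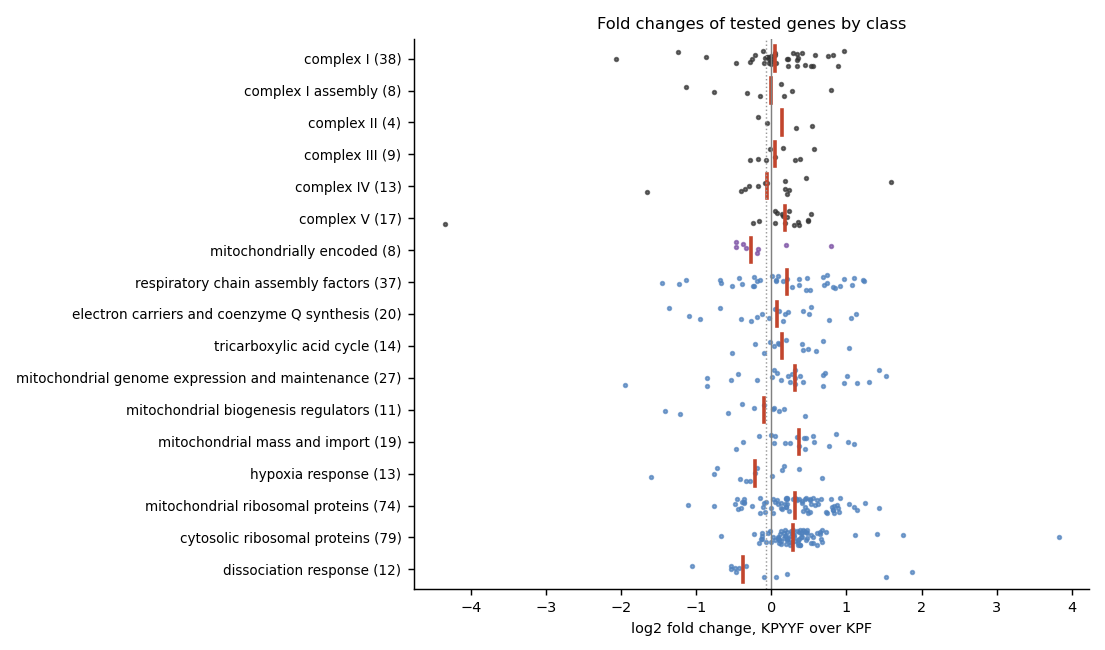
Log2 fold change of KPYYF over KPF for each tested gene of the respiratory chain (black by complex, purple mitochondrially encoded) and of related lists (blue), with the number of genes in brackets, red lines at the class medians and a dotted line at the median of all genes tested, -0.07. The class medians lie between -0.38 and 0.37, with single genes spread well beyond them.

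The remaining marker lists were compared as totals. Summed CPM in KPF and KPYYF ranged from 422 to 5600 and from 1080 to 3165 for fibroblast, from 84.3 to 25097 and from 88.0 to 6751 for acinar, from 16.3 to 89.8 and from 20.96 to 39.3 for endothelial, from 2.45 to 73.9 and from 2.62 to 20.4 for islet, from 2.04 to 83.8 and from 3.67 to 99.5 for muscle and from 13.6 to 259.8 and from 23.2 to 110.6 for erythroid markers. Genes at 0 in every library included Amy2a5 among the acinar and Myh1 and Myh4 among the muscle markers. The groups overlapped in each of these totals, and their part in the values of the respiratory chain genes was not tested.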

How the data were processed

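Total RNA of FACS-sorted tumour cells was made into QuantSeq 3′ FWD libraries, which read the 3′ end of polyadenylated RNA. The deposited files held raw counts, whole numbers of reads per Ensembl gene in each of 9 libraries. Per the submitters' processing notes the authors used STAR, HTSeq and the mm10 build, and versions and strand setting were not given in the sources used here. The methods of the study also mention BeadChip hybridization, but the files held read counts. Rows that name no gene were left out: reads without a unique alignment (43.8 to 53.4% of a library), outside features (8.63 to 16.0%) or ambiguous (0.231 to 0.312%). Reads that align equally well to near-identical copies fall among those without a unique alignment, and how far this lowered members with copies was not tested. Because a 3′ tag is counted once per transcript, counts were not scaled by length, and levels were not compared between genes except within gene sets named as such.

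Symbols, positions and biotypes came from GENCODE M21 (GRCm38), which matched 47224 of 47643 genes, and 1 annotated member was not in the files. The edgeR 4.0.16 quasi-likelihood test (R 4.3.3, robust, TMM, genes that reached 100 counts in total, Benjamini-Hochberg over 14105 genes) was fitted on 6 KPF and 3 KPYYF libraries, and the SE was taken from the F statistic. CPM used the TMM factors. DESeq2 1.42.0, limma 3.58.1 voom with quality weights, other normalizations, other filters, summed 4504 libraries, high-Xist libraries alone and each library left out were the alternatives. The scripts were tested on simulated data. With 3 against 6 libraries an exact permutation test over 84 splits cannot go below 0.0119, and it was not used for calls. Shares of 50-base words were counted over the last 300 bases of each nuclear member's protein-coding transcripts and over whole mitochondrially encoded genes.

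Genes were named by rule: all mitochondrially encoded members, members past the adjusted threshold or without overlap, the 6 highest and 6 lowest fold changes at a mean of at least 10 CPM, isoform sets, Sdh genes, X-linked members, the member of each complex with the highest mean, and the ends of each list. Others named (Atp5g1, Atp5a1, Atp5b, Atp5h, Atp5k, Ndufaf1, Ndufaf6 and Nrf1) were added after their values were seen. Members and lists were chosen with earlier results of these data known. A further allele and a marker gene are not reported here.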

Additional observations from a re-analysis of the deposited data

Results flagged for a closer look

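Among the 6 KPF libraries, 47 values were examined for a single library far from the rest (a gap to the nearest library of more than 0.625 of the group's range), and chance flags about 1 in 20 groups. 3 values stood out, each with library 4269 as the highest. mt-Nd3 was at 21.5 CPM in 4269 against at most 2.84 CPM in the others, and its reads in most other libraries were counted on the nuclear copy described above. Ndufa2 was at 634 CPM in 4269 against at most 410 CPM. Ndufa6 was at 466 CPM in 4269 against at most 299 CPM, and its log2 fold change of -0.47 was -0.30 without that library. With a KPYYF library left out it was -0.11 without 4449, -1.26 without 4891 and -0.27 without 4938, and its adjusted p in edgeR was at least 0.174 with any 1 library left out. Library 4269 was the highest KPF library for 21 and the lowest for 25 of the 89 tested nuclear members.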

How the results depend on the processing

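No paired analysis was possible because the replicate numbers were given in order and pair no KPF library with a KPYYF library. The nuclear median log2 fold change ranged from 0.08 to 0.15 and the mitochondrially encoded median from -0.52 to 0.06 when 1 library at a time was left out, and their difference, 0.35, from 0.07 without KPYYF 4891 to 0.61 without KPYYF 4449. Over the other alternatives the difference ran from 0.24 (high-Xist libraries only) to 0.53 (limma-voom). These mitochondrially encoded medians and differences include mt-Nd3. No member passed the adjusted threshold in any alternative except DESeq2, with 1 higher (Ndufv2, 0.99) and 1 lower (Atp5g2, -4.37). By the study's rule 1 nuclear member was higher with no filter, 2 were lower in limma-voom, and 0 to 2 were higher and 1 to 2 lower with a library left out, as were 0 to 1 mitochondrially encoded members higher. The rule that removed genes under 100 counts left 97 of 107 members. The other 10 had too few assigned reads to be tested, and whether their RNA was scarce was not tested.

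Among 39 members and Yap1, 688 of 712 single values kept their direction and side of the threshold, 20 changed sign and 4 changed side. Ndufa2 was at 0.0022 in limma-voom and 0.15 in the high-Xist libraries, and Ndufb11 at -0.0573 in the latter. With 1 library left out the ranges that crossed 0 were -0.46 to 0.0920 for mt-Nd2, -1.35 to 2.72 for mt-Nd3, -0.99 to 0.026 for mt-Nd4, -0.86 to 0.18 for mt-Cytb, -0.17 to 0.12 for Ndufa2, -0.16 to 0.34 for Ndufb11, -0.21 to 0.0338 for Sdha, -0.76 to 0.0941 for Uqcrh and -0.0314 to 0.31 for Cox7a2. The change of sign of mt-Nd2, mt-Nd4 and mt-Cytb came without KPYYF 4891. The edgeR adjusted p of Ndufv2 ran from 0.107 to 0.220 and of Atp5g2 from 0.106 to 0.211 with a library left out. Yap1 missed the threshold in limma-voom (-4.56, adjusted p = 0.0886) and without KPYYF 4891 (-4.65, adjusted p = 0.0553), and the cause was not tested.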

Other observations

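The high value of Ndufb9 in KPYYF 4891 was set beside its neighbours on chromosome 15, a window chosen after its values were seen, so the counts are a description. Of the 20 other tested genes within 1 Mb of Ndufb9, 7 were above every KPF library in 4891 (18.7% of all genes tested), and 4 were above 2 times their KPF median (16.0% of all genes tested). The 7 were Tbc1d31, 9130401M01Rik, Zhx1, Atad2, Tmem65, Rnf139 and Washc5. Tbc1d31 was at 1.19, 4.25 and 1.07 times its KPF median in KPYYF 4449, 4891 and 4938, whereas Atad2 was high in each of them, at 2.85, 3.55 and 3.19 times (log2 fold change 1.78, edgeR adjusted p = 0.0229). The median ratio over the 20 genes was 1.40 in KPYYF 4891, 0.874 in 4449 and 1.053 in 4938.

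The split of reads between mt-Nd3 and Gm28438 did not follow the groups. KPF 4269 and KPYYF 4891 and 4938 had 0 to 3.23% of the pair's reads on Gm28438, and KPF 4504s, with 25 reads on mt-Nd3 and 165 on Gm28438, was the most mixed library.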
